A study of Rattus norvegicus with 12 samples.

Results

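The insulin-like growth factors, their receptor and their binding proteins were examined in tibial RNA of pre-pubertal female rats given dietary soy protein isolate, 17β-estradiol (E2), or both. The genes were the ligands Igf1 and Igf2, the receptor Igf1r and the binding proteins Igfbp1 to Igfbp7. They were represented on an Affymetrix rat expression array by 22 probe sets of the 31042 that were tested, being every probe set whose platform annotation gave 1 of these 10 symbols and no other symbol. The 4 groups were SPI+E2 (soy protein isolate diet with E2), SPI (soy protein isolate diet alone), E2 (casein diet with E2) and CAS (casein diet alone), with 3 arrays each. All animals were Sprague-Dawley females born to casein-fed dams, weaned at postnatal day 20, on their diets for 14 d and killed at postnatal day 34 per the labels. E2 was delivered at 10 µg/kg/d from a subcutaneous osmotic minipump. The RNA on an array was a pool from 2 to 3 rats, taken from tibia after the marrow had been aspirated, so p-values measure the spread between pools.

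Insulin-like growth factors are small secreted proteins related to insulin that act through the type 1 receptor to drive cell survival, division and growth. In growing bone Igf1 is made under the control of growth hormone by the liver and also locally by osteoblasts and growth plate chondrocytes. The binding proteins hold the ligands in serum and matrix, and individual members can restrain or aid ligand action.

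Of the 10 genes, Igfbp2 moved most, and it stood in a different place in each group. It was 5.46-fold higher in SPI+E2, 3.74-fold higher in E2 and 1.76-fold higher in SPI, each against CAS. Igf1 was lower in all 3 treated groups, by 1.26-fold to 1.36-fold as the mean over its probe sets. Igfbp3 and Igfbp5 were also lower, while Igfbp4 was higher in SPI alone and Igfbp6 in E2 alone among the comparisons with CAS.

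Values are on the log2 scale relative to the median of the 12 arrays for the same probe set, so a value of 0 is the middle array and not a level of expression. Levels of different genes therefore cannot be compared, and it cannot be read from these values whether the markers of bone are present at all. The median SD within a group over all probe sets was 0.0840 in SPI+E2, 0.0957 in SPI, 0.0713 in E2 and 0.0694 in CAS. The CAS arrays stood apart for sex-linked genes: Eif2s3y, a Y-linked gene, lay between -0.37 and -0.01 in SPI+E2, between 0.26 and 0.86 in SPI, between 0.01 and 0.19 in E2 and between -2.20 and -1.82 in CAS. Xist, transcribed from the inactive X, was highest in CAS, at 0.18 to 0.28 against -0.07 to 0.03 in the treated groups, and the Y-linked Uty did not separate CAS in the same direction. Neuronal marker genes were higher in every treated group than in CAS (6 of 8 in SPI+E2, 8 of 8 in SPI and 8 of 8 in E2), and erythroid marker genes were lower (6, 5 and 7 of 7). The part of these differences in the results against CAS was not tested, and the comparisons among treated groups do not use the CAS arrays' values, apart from their share in the common estimate of the spread.

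The 250 bases before the annotated transcription start are shown for Igfbp2, the gene with the largest change, and for Igf1, which moved the other way (RefSeq, GRCr8, 5′ to 3′ on the gene's strand). The Igfbp2 window lies at chr9:81864561-81864810 on the plus strand and the Igf1 window at chr7:24172282-24172531 on the plus strand. Capitals mark matches to the motifs described next.
Igfbp2: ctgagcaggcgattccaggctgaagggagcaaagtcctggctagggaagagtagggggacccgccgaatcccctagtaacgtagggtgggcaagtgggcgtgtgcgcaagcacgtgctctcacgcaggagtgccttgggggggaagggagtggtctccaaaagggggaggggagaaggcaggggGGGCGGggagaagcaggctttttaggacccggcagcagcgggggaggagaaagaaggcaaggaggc
Igf1: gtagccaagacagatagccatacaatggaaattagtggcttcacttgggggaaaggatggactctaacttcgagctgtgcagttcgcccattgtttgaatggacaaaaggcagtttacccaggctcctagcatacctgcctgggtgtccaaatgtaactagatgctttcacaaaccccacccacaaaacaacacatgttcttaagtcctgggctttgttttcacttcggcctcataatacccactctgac

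Windows of this kind were found for all 10 genes, 11 windows in all, and were searched on both strands. The full estrogen response element GGTCANNNTGACC, the palindrome that estrogen receptors bind, had no match in any of the 11 windows, and 8 of 33469 rat windows held it (0.0239%). Its single arm GGTCA, which overlaps the full element, occurred in 35.4% of all windows and in those of Igf2 and Igfbp1 here. The GC box GGGCGG, a motif bound by Sp1, occurred in 30.5% of all windows and in those of Igfbp2, Igf1r, Igf2 and Igfbp7, starting 66 bases before the start of Igfbp2. A match is a description of the letters in these windows only. Igfbp2 and Igfbp5 are neighbours on chromosome 9, and Igfbp1 and Igfbp3 on chromosome 14, with 0 protein-coding genes between the members of each pair.

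To ask how often these genes differed from the casein control, each probe set was tested with limma and counted as called where its p, adjusted by Benjamini-Hochberg over all 31042, was below 0.05. In SPI+E2 against CAS 12 of the 22 probe sets were called, 4 higher and 8 lower, where 8.48% of all probe sets were called. In SPI against CAS 10 were called, 2 higher and 8 lower, where 17.3% of all were called. In E2 against CAS 9 were called, 4 higher and 5 lower, with 9.35% called over all probe sets. The median change of the 22 was small, at -0.04 in SPI+E2, -0.06 in SPI and -0.05 in E2, beside 0.02, 0.01 and -0.01 for all probe sets. The 3 arrays of a treated group did not overlap the 3 CAS arrays for 15 probe sets in SPI+E2, 13 in SPI and 14 in E2, where 30.5%, 33.9% and 29.8% of all probe sets did not overlap. With probe sets averaged by gene, 5 of the 10 genes were called in each of the 3 comparisons, against 12.9% of 14217 genes in SPI+E2, 25.4% in SPI and 14.2% in E2. An F test over the 4 groups called 14 of the 22 probe sets, where 25.2% of all were called. The 3 comparisons share the CAS arrays, so their calls are not independent of each other.

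**Figure D1:**
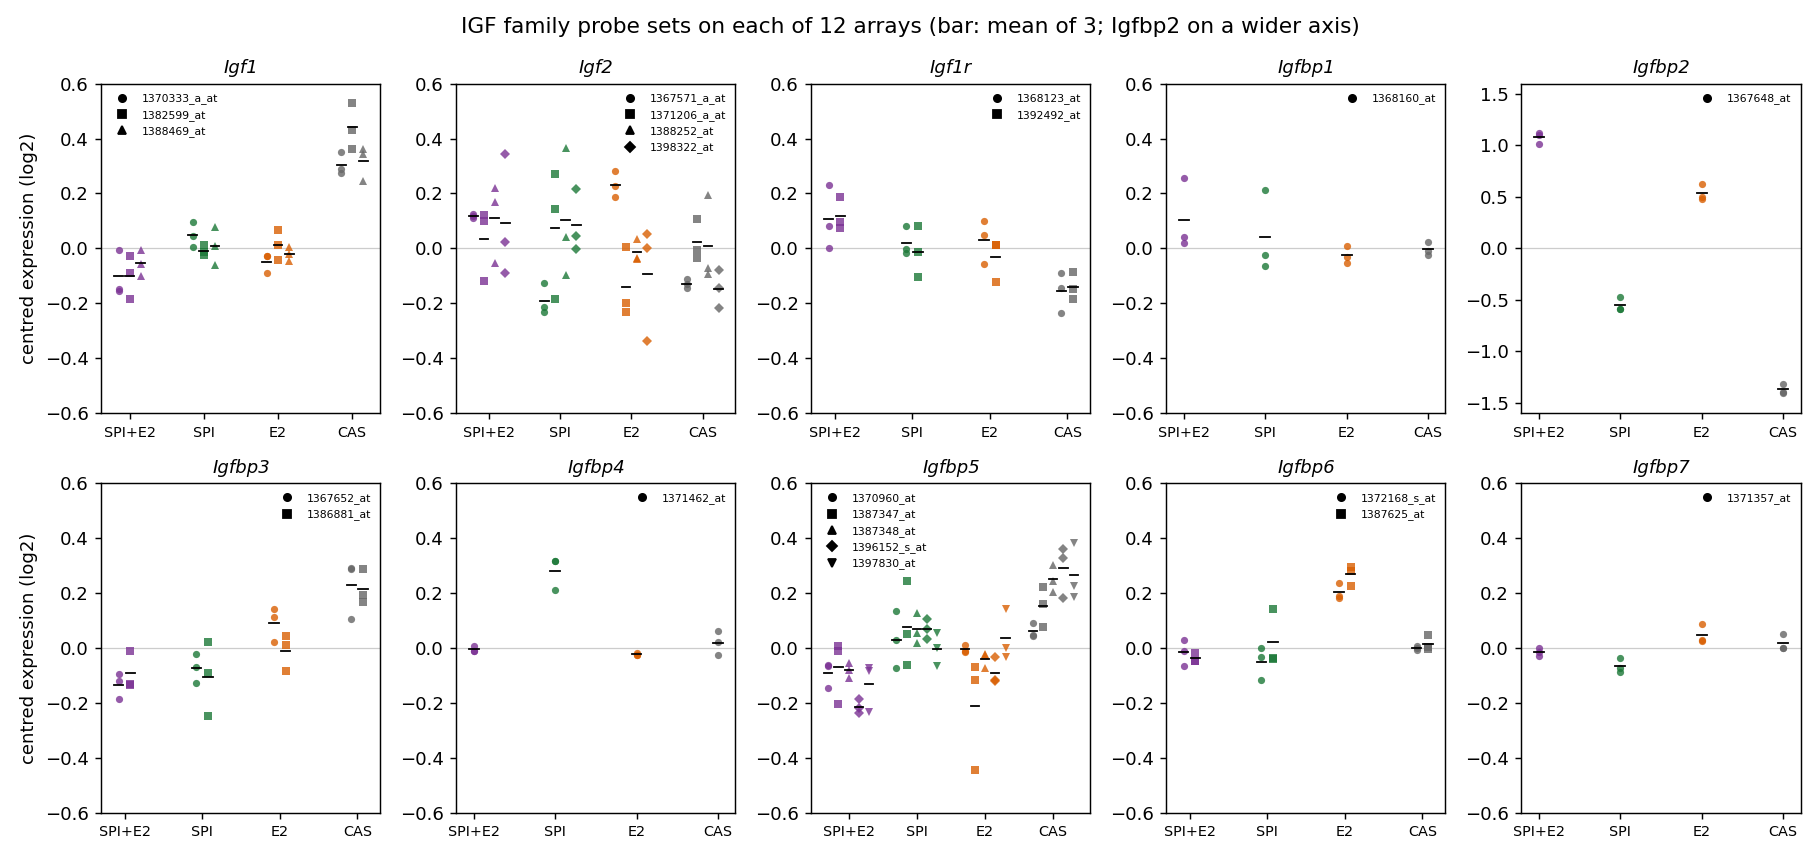
Values of the 22 probe sets on each array, as log2 centred on the median of 12 arrays, by group; horizontal bars are means of 3 arrays, and Igfbp2 has a wider axis. Igfbp2 separates all 4 groups, with SPI+E2 between 1.01 and 1.12 and CAS between -1.40 and -1.31, while the Igf1 probe sets separate CAS from the treated groups.

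Igf1 encodes the main growth hormone-dependent ligand and was lower in every treated group on all 3 of its probe sets. Probe set 1382599_at read -0.18, -0.09 and -0.03 in SPI+E2, -0.01, -0.03 and 0.01 in SPI, -0.04, 0.01 and 0.07 in E2, and 0.53, 0.36 and 0.43 in CAS. All 9 treated arrays were below all 3 CAS arrays. The change was -0.54 (SE 0.0585) in SPI+E2, -0.45 in SPI and -0.43 in E2, with limma adjusted p of 0.000246, 0.000289 and 0.00052. In whole bone, fewer cells of a type and less RNA per cell cannot be told apart.

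The other Igf1 probe sets were lower in the same groups. Probe set 1370333_a_at changed by -0.41 in SPI+E2, -0.26 in SPI and -0.35 in E2, and probe set 1388469_at by -0.37, -0.31 and -0.34 (largest limma adjusted p 0.00652). The 3 probe sets correlated with each other at 0.934 to 0.966 over the 12 arrays, which share their hybridizations. Each of these 9 calls was kept when any single array was left out. Among the treated groups no Igf1 probe set passed the test. For 1382599_at the difference of SPI from E2 was -0.02, with a 95% interval of -0.15 to 0.11. The chondrocyte marker list also fell in these groups, with 6 of 7 genes lower in SPI+E2, 6 in SPI and 4 in E2, and its mean ranged from -0.07 to -0.04 in SPI+E2, -0.46 to -0.41 in SPI, 0.05 to 0.11 in E2 and 0.42 to 0.46 in CAS. This list was also lower in SPI than in E2 for 6 of 7 genes, a comparison in which no Igf1 probe set was called. Of 5 osteoblast markers 0 were called against CAS in SPI+E2, SPI or E2, with median changes of -0.07, -0.01 and 0.01. Brown adipocyte markers were lower too, for 2 of 3 genes in SPI+E2, 3 in SPI and 2 in E2. The part of these lists in the Igf1 result was not tested.

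Igf2, a fetal growth factor expressed from the paternal allele in most tissues, gave a result that depended on the probe set. Probe set 1367571_a_at read 0.12, 0.13 and 0.11 in SPI+E2, -0.21, -0.23 and -0.13 in SPI, 0.23, 0.19 and 0.28 in E2, and -0.13, -0.14 and -0.11 in CAS. The groups given E2 lay above both groups without it, with no overlap. The change against CAS was 0.36 in E2 (limma adjusted p 0.00037) and 0.25 in SPI+E2 (0.00756), and the value in SPI was -0.06 (0.417). The other 3 Igf2 probe sets were not called in any comparison, and correlations among the 4 ran from -0.55 to 0.53. Averaged by gene, Igf2 was not called against CAS (adjusted p 0.168 in SPI+E2, 0.425 in SPI and 0.681 in E2).

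Igf1r encodes the receptor tyrosine kinase for both ligands and was past the test in SPI+E2 against CAS on both of its probe sets. Probe set 1392492_at read 0.07, 0.19 and 0.10 in SPI+E2, -0.11, -0.01 and 0.08 in SPI, 0.01, -0.12 and 0.01 in E2, and -0.19, -0.15 and -0.09 in CAS. All 3 SPI+E2 arrays were above the CAS arrays, while the SPI and E2 arrays overlapped them. Probe set 1368123_at read 0.0028, 0.08 and 0.23 in SPI+E2, -0.02, -0.0028 and 0.08 in SPI, -0.06, 0.05 and 0.10 in E2, and -0.24, -0.09 and -0.14 in CAS, and here no treated group overlapped CAS. Both probe sets were 0.26 higher in SPI+E2 than in CAS (limma adjusted p 0.0245 for 1392492_at and 0.0377 for 1368123_at). In SPI they were 0.13 and 0.18 above CAS, and in E2 0.11 and 0.19, none past the test, although 1368123_at in SPI passed with pool number as a replicate block (adjusted p 0.0456). The call of 1392492_at was lost without CAS 1, CAS 2 or SPI+E2 2 (adjusted p up to 0.0957), and that of 1368123_at without any CAS array, SPI 2, E2 2, SPI+E2 2 or SPI+E2 3 (up to 0.14), with only the 2 groups fitted (0.0828) and without moderation (0.0549). The SPI+E2 arrays did not differ past the test from SPI or from E2 for either probe set.

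Igfbp2, a binding protein abundant in fetal tissues and serum that carries an integrin-binding motif, was the gene with the largest changes. It read 1.12, 1.01 and 1.10 in SPI+E2, -0.59, -0.48 and -0.59 in SPI, 0.48, 0.50 and 0.62 in E2, and -1.40, -1.40 and -1.31 in CAS. The groups formed 4 separate levels in the order SPI+E2, E2, SPI and CAS, with no array out of place. Against CAS it was 2.45 higher in SPI+E2 (SE 0.0586, limma adjusted p 1.05e-09), 0.82 in SPI (2.78e-06) and 1.90 in E2 (2.63e-08). By size of increase over CAS among all 31042 probe sets it stood at rank 3 in SPI+E2, 271 in SPI and 2 in E2. Every neighbouring pair in the order differed past the test.

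Igfbp2 is also made in liver and in the meninges, whose markers were therefore read beside it. Of 10 hepatocyte markers 1 was higher in SPI+E2, 1 in SPI and 0 in E2, Alb in both cases, by 2.06 in SPI+E2 and 0.36 in SPI. The mean of that list, which includes Alb, ranged from 0.21 to 0.28 in SPI+E2, -0.02 to 0.20 in SPI, -0.15 to -0.06 in E2 and -0.06 to 0.03 in CAS. The median change of its genes against CAS was 0.07 in SPI+E2, 0.07 in SPI and -0.11 in E2. Of 7 meningeal and choroid plexus markers 1 was higher and 1 lower in SPI+E2, 0 moved in SPI and 1 was higher in E2, and the mean of the list ranged from -0.09 to -0.05, -0.03 to 0.08, 0.08 to 0.15 and -0.03 to 0.02 in SPI+E2, SPI, E2 and CAS. The part of liver or meningeal RNA in the Igfbp2 result was not tested. The genes whose pattern over the 12 arrays was most like that of Igfbp2 were Lamb2, a laminin chain (Pearson r 0.983), RT1-Bb, a class II histocompatibility chain (0.973), Txnip, an inhibitor of thioredoxin (0.963), Chac1, which degrades glutathione (0.962), and Myh14, a non-muscle myosin (0.957). These are descriptions over arrays that share 4 group means, and 30 genes had r of at least 0.9. Changes of the named genes in SPI+E2 against CAS were smaller than that of Igfbp2, at 0.43 to 0.71. In SPI against CAS Txnip, Chac1 and Myh14 were not called (limma adjusted p 0.144, 0.228 and 0.121). The calls of Lamb2 and RT1-Bb there were lost without some single arrays (up to 0.136 and 0.0924).

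**Figure D2:**
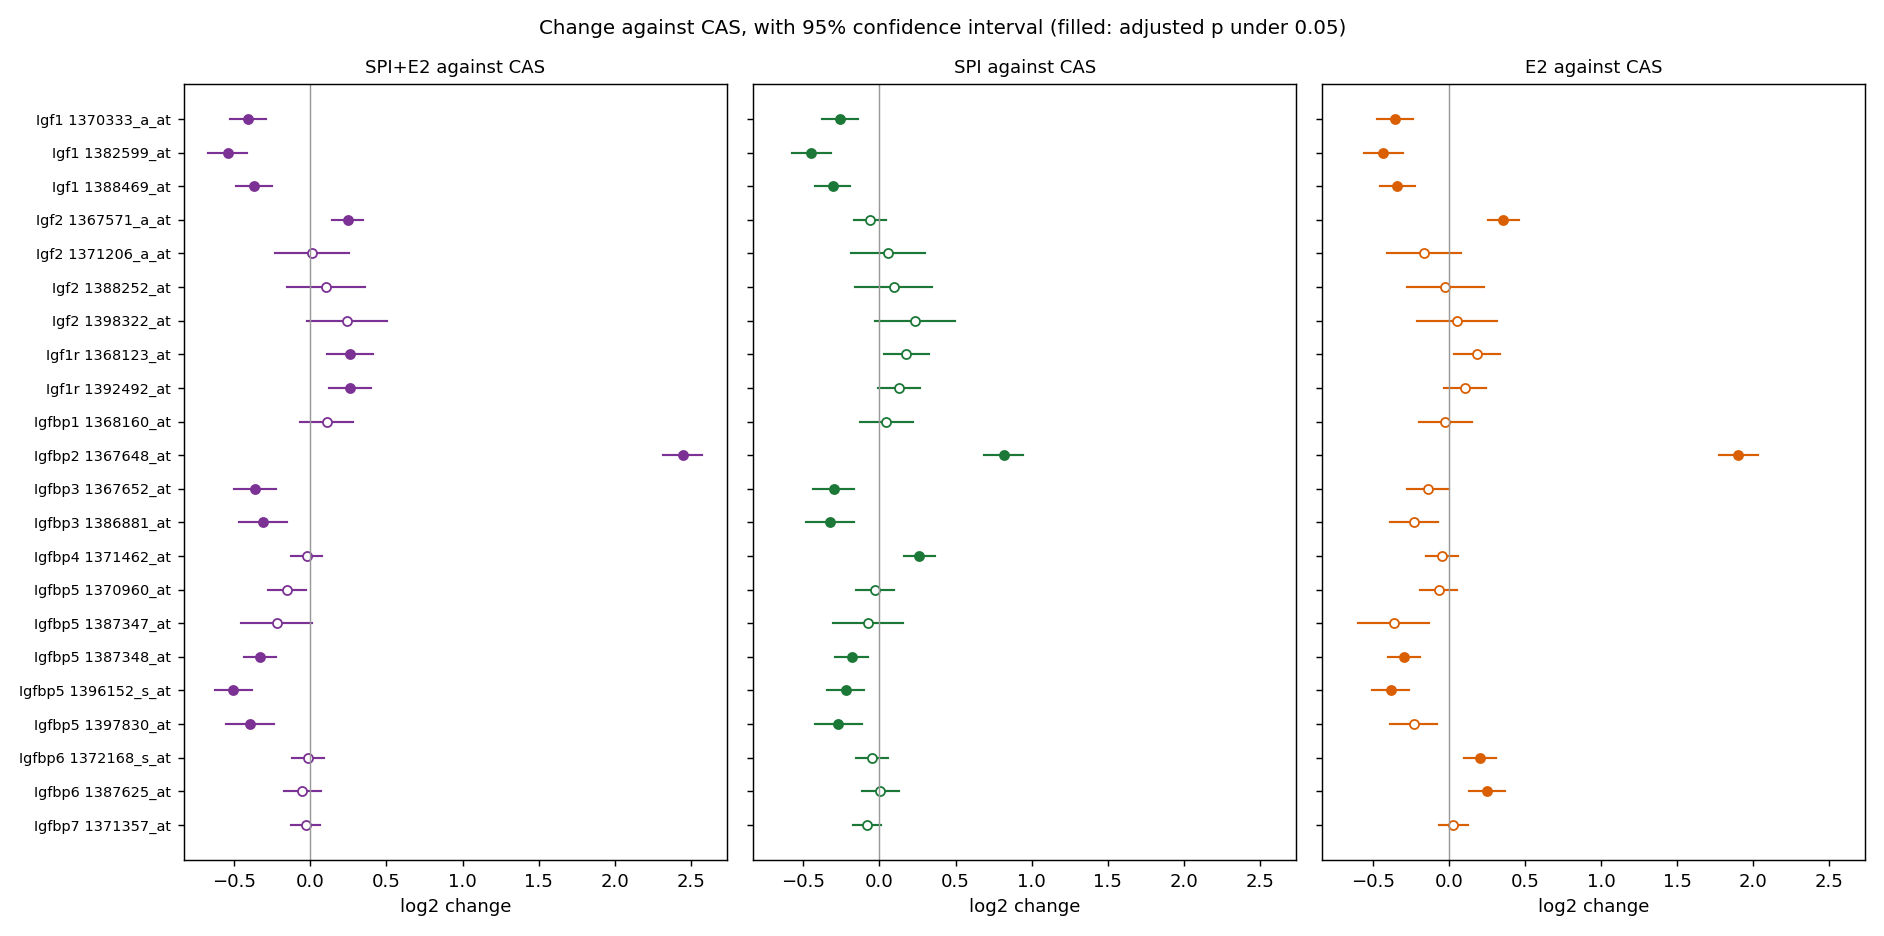
Change of each of the 22 probe sets against CAS on the log2 scale, with 95% intervals, for SPI+E2, SPI and E2 on 1 common axis; filled points passed the limma test. Igfbp2 lies far to the right in all 3 panels, at 2.45, 0.82 and 1.90, and the 3 Igf1 probe sets lie to the left in each.

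Igfbp3, the main serum carrier of the ligands, was lower in both groups fed soy protein. Probe set 1367652_at read -0.10, -0.12 and -0.19 in SPI+E2, -0.02, -0.13 and -0.07 in SPI, 0.11, 0.02 and 0.14 in E2, and 0.29, 0.10 and 0.29 in CAS. The soy-fed arrays all lay below CAS, and the E2 arrays overlapped CAS. The change was -0.36 in SPI+E2 (limma adjusted p 0.00435), -0.30 in SPI (0.00612) and -0.14 in E2 (0.247). The second probe set, 1386881_at, changed by -0.31, -0.32 and -0.23 in SPI+E2, SPI and E2, with adjusted p of 0.0215, 0.00918 and 0.0787, and its call in SPI+E2 was lost without CAS 1, CAS 3, SPI+E2 1 or SPI+E2 3 (up to 0.0897). Its E2 arrays did not overlap CAS, and its change in E2 passed with only the 2 groups fitted (0.0473), after quantile normalization (0.035), with array weights (0.0296) and without SPI 1 (0.035). Averaged by gene, E2 was also past the test, at -0.18 (adjusted p 0.0255).

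Igfbp5, the binding protein that associates with bone mineral and matrix, was lower on 3 of its 5 probe sets in SPI+E2, 3 in SPI and 2 in E2. Probe set 1396152_s_at read -0.19, -0.22 and -0.24 in SPI+E2, 0.03, 0.11 and 0.07 in SPI, -0.12, -0.03 and -0.12 in E2, and 0.36, 0.18 and 0.33 in CAS. Its groups did not overlap, in the order CAS, SPI, E2 and SPI+E2 downwards. Its change was -0.51 in SPI+E2 (limma adjusted p 0.000266), -0.22 in SPI (0.0164) and -0.38 in E2 (0.000774). The differences of SPI from E2 (0.16, adjusted p 0.0713, or 0.0419 with array weights) and of SPI+E2 from E2 (-0.12, 0.182) did not pass the test in the fit of all arrays. Averaged by gene, Igfbp5 was -0.32 in SPI+E2, -0.16 in SPI and -0.27 in E2, each past the test. The calls in SPI were lost for 1387348_at without CAS 2, CAS 3, SPI 1 or SPI 3, for 1396152_s_at without CAS 1 or CAS 3, and for 1397830_at without CAS 3 or SPI 2 (adjusted p up to 0.0928), and for the first 2 also with only the 2 groups fitted (0.0864 and 0.0685). Probe set 1387347_at was -0.36 in E2, with no overlap with CAS and an adjusted p of 0.0551 that passed with a replicate block (0.0235), after quantile normalization (0.0355), with array weights (0.0368) and without the probe sets of smallest spread (0.0445). Its difference of SPI from E2, 0.29 (0.0887), passed with the block (0.0426). Probe set 1397830_at was -0.23 in E2 (0.0709) and passed after quantile normalization (0.0407) and with array weights (0.0279). Probe set 1370960_at was not called in any comparison, and correlations among the 5 ran from 0.21 to 0.93.

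Igfbp4, which mostly restrains ligand action until it is cleaved, was higher in SPI alone on its only probe set, 1371462_at. It read -0.01, 0.01 and -0.01 in SPI+E2, 0.32, 0.32 and 0.21 in SPI, between -0.03 and -0.02 in E2, and -0.02, 0.02 and 0.06 in CAS. The SPI arrays stood above all 9 others. The change against CAS was 0.26 in SPI (SE 0.0470, limma adjusted p 0.00259), -0.02 in SPI+E2 (0.802) and -0.04 in E2 (0.705). Neuronal and Schwann cell markers were also highest in SPI, with neuronal list means of -0.28 to -0.25 in SPI+E2, 0.46 to 0.48 in SPI, 0.22 to 0.27 in E2 and -0.52 to -0.50 in CAS, and their part in this result was not tested.

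Igfbp6, which prefers Igf2 over Igf1, was higher in E2 alone. Probe set 1387625_at read -0.05, -0.02 and -0.05 in SPI+E2, 0.14, -0.04 and -0.04 in SPI, 0.30, 0.28 and 0.23 in E2, and ran from -0.0044 to 0.0479 in CAS. The E2 arrays were above all 9 others. The change against CAS was 0.25 in E2 (limma adjusted p 0.0123), -0.05 in SPI+E2 (0.62) and 0.01 in SPI (0.96), and the call in E2 was lost without E2 1 (0.0543). Probe set 1372168_s_at was 0.20 higher in E2 (adjusted p 0.0192), a call lost without any CAS array, E2 2 or E2 3 (up to 0.0786). The fibroblast list mean was also highest in E2, at -0.11 to -0.10 in SPI+E2, -0.04 to -0.0005 in SPI, 0.09 to 0.11 in E2 and -0.0013 to 0.02 in CAS. Of its 7 genes 1, Thy1, was called in E2 against CAS (0.29), and Thy1 was also higher in SPI (0.39). The osteocyte list mean was 0.08 to 0.14 in E2 and overlapped CAS, at 0.05 to 0.11, with 0 of 5 genes called in E2 against CAS. The meningeal and choroid plexus list mean was 0.08 to 0.15 in E2, with 1 of 7 genes, Ptgds, called in that comparison. The part of these markers in the Igfbp6 result was not tested.

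Igfbp1, which insulin represses in liver, and Igfbp7, a related protein of low affinity for the ligands, had no probe set past the test against CAS. Igfbp1 changed by 0.11 in SPI+E2 (95% interval -0.07 to 0.28), 0.05 in SPI (-0.13 to 0.22) and -0.02 in E2 (-0.20 to 0.15). Igfbp7 changed by -0.03 (-0.13 to 0.06), -0.08 (-0.18 to 0.01) and 0.03 (-0.07 to 0.12), and its value in SPI passed without moderation (limma adjusted p 0.044).

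To compare the soy diet and E2 directly, SPI was set against E2: 5 of 22 probe sets were called, 1 higher and 4 lower, where 16.7% of all were called. Igfbp2 was 1.09 lower in SPI than in E2 (a change of -1.09, 2.12-fold, limma adjusted p 1.08e-06). Igf2 probe set 1367571_a_at was also lower, at -0.42 (0.000128), as were both Igfbp6 probe sets, at -0.25 each (0.00389 and 0.0103), the second being lost with only the 2 groups fitted (0.0609). Igfbp4 was higher in SPI, by 0.31 (0.00106).

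Adding E2 to the soy diet, SPI+E2 against SPI, called 4 of 22 probe sets, 2 higher and 2 lower, where 11.4% of all were called. Igfbp2 was 1.63 higher in SPI+E2, 3.09-fold (limma adjusted p 7.87e-08), and Igf2 probe set 1367571_a_at was 0.31 higher (0.00107). Igfbp4 changed by -0.29 (0.0019) and Igfbp5 probe set 1396152_s_at by -0.28 (0.00586).

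Adding the soy diet to E2, SPI+E2 against E2, also called 4 of 22, 1 higher and 3 lower, where 10.5% of all were called. Igfbp2 was 0.54 higher in SPI+E2, 1.46-fold (limma adjusted p 0.000172). Both Igfbp6 probe sets were lower, at -0.30 (0.00497) and -0.22 (0.0137), the second call being lost without E2 3 or SPI+E2 1 (up to 0.0584). Igfbp3 probe set 1367652_at was lower, at -0.23 (0.0396), a call lost without E2 1, E2 3 or any SPI+E2 array (up to 0.135), with only the 2 groups fitted (0.0527) and without the probe sets of smallest spread (0.0551).

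Whether the change with E2 was alike on the soy and casein diets was tested as the difference between SPI+E2 against SPI and E2 against CAS. It therefore also uses the CAS arrays, which stood apart for Eif2s3y and Xist, and the part of that difference here was not tested. This interaction called 4 of 22 probe sets, 2 higher and 2 lower, where 9.92% of all were called. For Igf1 probe set 1382599_at the change with E2 was -0.09 on soy and -0.43 on casein, a difference of 0.34 (limma adjusted p 0.0229). Its group means were -0.10 in SPI+E2, -0.01 in SPI, 0.01 in E2 and 0.44 in CAS. For 1388469_at the change with E2 was -0.06 and -0.34, a difference of 0.27 (0.041). For Igfbp4 the change with E2 was -0.29 on soy and -0.04 on casein, a difference of -0.24 (0.0391), and for Igfbp6 probe set 1387625_at it was -0.06 and 0.25, a difference of -0.31 (0.0261). For Igfbp2 it was 1.63 on soy and 1.90 on casein, a difference of -0.27 whose adjusted p of 0.0605 did not pass. That value was past the test after quantile normalization (-0.37, adjusted p 0.0184), with array weights (-0.28, 0.0444) and in the gene-level fit (0.0309). The third Igf1 probe set, 1370333_a_at (0.20, limma adjusted p 0.132), and the second Igfbp6 probe set, 1372168_s_at (-0.17, 0.166), did not pass. In the gene-level fit Igf1 (0.27, 0.0133), Igfbp6 (-0.24, 0.0174) and Igfbp4, on its only probe set (-0.24, 0.0142), passed. Other settings ended calls: that of Igfbp4 was lost with a replicate block (0.0648), after quantile normalization (-0.19, 0.0875) and without the probe sets of smallest spread (0.0869), and that of 1388469_at with the block (0.0526) and without those probe sets (0.0735). The call of 1382599_at was lost without CAS 1, SPI 2, E2 1, E2 2 or SPI+E2 3 (adjusted p up to 0.0644), and that of 1388469_at was kept only without CAS 2, SPI 3 or SPI+E2 1 (up to 0.103). The call of Igfbp4 was kept only without SPI 3 (up to 0.103), and that of 1387625_at was lost without CAS 1, CAS 2, E2 1, E2 2, SPI+E2 1 or SPI+E2 3 (up to 0.0685).

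**Figure D3:**
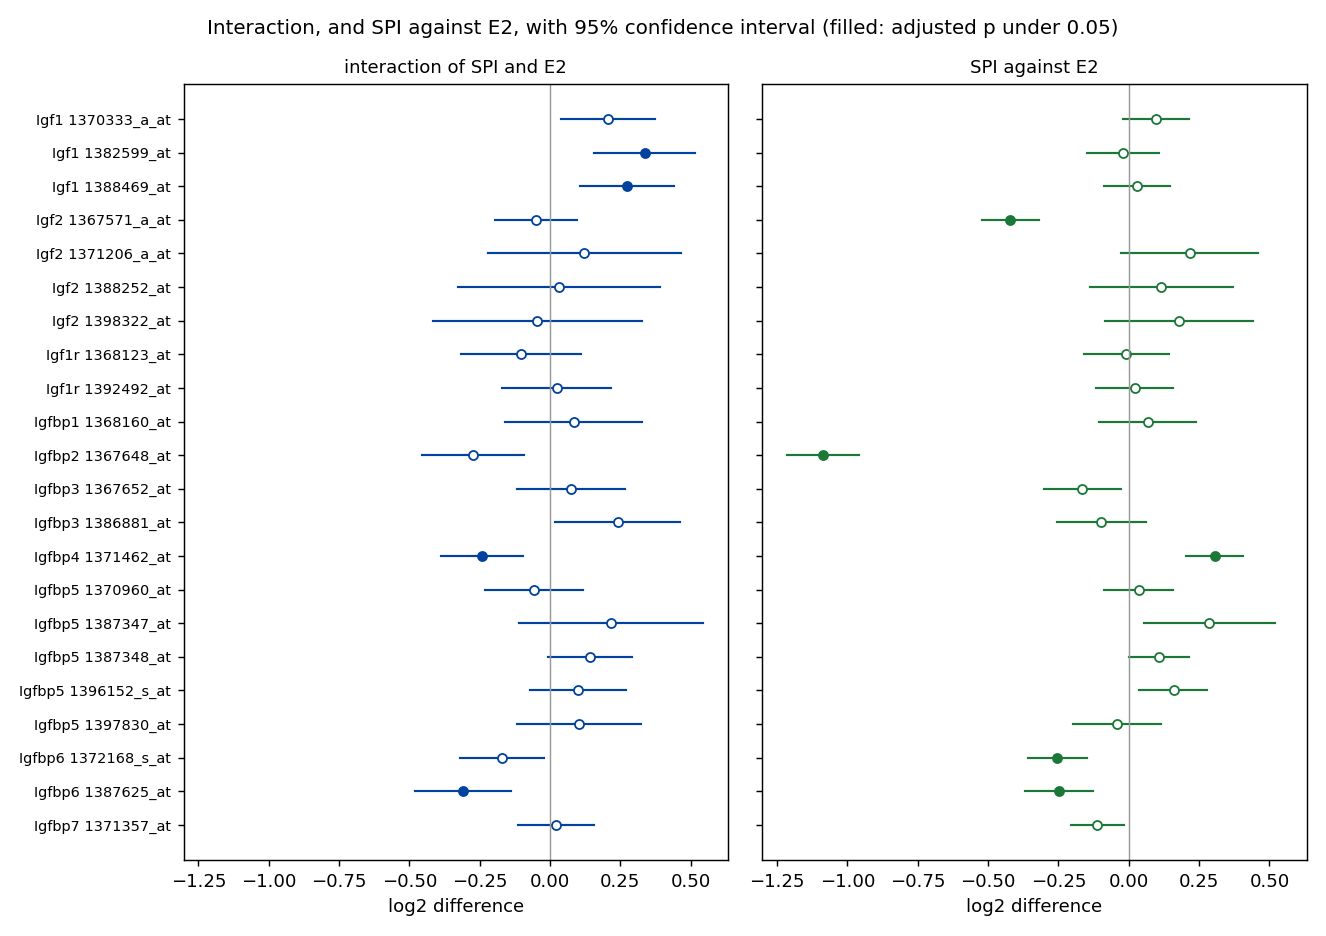
Interaction of SPI and E2 (left) and SPI against E2 (right) for the 22 probe sets, on the log2 scale with 95% intervals; filled points passed the limma test. Among the called interactions the Igf1 values of 0.34 and 0.27 lie above 0 and those of Igfbp4 and Igfbp6, -0.24 and -0.31, below it.

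The other genes of the growth hormone and insulin-like growth factor axis, from receptors to intracellular signalling, were read as gene means for 31 of 34 listed genes, and the other 3 were not analysed here. In SPI+E2 1 was higher and 1 lower than in CAS, in SPI 1 was higher and 7 lower, and in E2 1 was higher and 0 lower. The list's median change was -0.02, -0.03 and 0.0044, beside 0.0048, -0.01 and -0.01 for all genes, and the shares called were below those of all genes in SPI+E2 and E2 (12.9% and 14.2% of all genes) and near it in SPI (25.4%).

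In SPI the largest changes were in Irs1, an adaptor of the insulin and type 1 receptors (-0.53, limma adjusted p 0.00293), Ghr, the growth hormone receptor (-0.45, 0.0115), Grb14, an adaptor that inhibits insulin receptor signalling (-0.27, 0.0184), and Igfbpl1, a protein related to the binding proteins (0.26, 0.0385). Irs1 and Ghr stayed past the test without any 1 array. Grb14 was lost without CAS 1 or SPI 1 (adjusted p up to 0.0792), and Igfbpl1 without CAS 2, CAS 3, SPI 1, SPI 3 or E2 3 (up to 0.139). In E2 the gene called was Htra1, a secreted protease that can cleave binding proteins (0.15, 0.017), lost without CAS 1, E2 1 or E2 2 (up to 0.0823). In SPI+E2 they were Igf2bp2, an RNA-binding protein (0.21, 0.0477), and Jak2, the kinase of the growth hormone receptor (-0.19, 0.0462), the first kept only without CAS 3, SPI 1 or SPI+E2 1 (up to 0.154) and the second only without CAS 2, SPI 1 or E2 3 (up to 0.161). Against E2, SPI was lower for 5 of the 31 genes and higher for 0, where 24.1% of all genes were called, with Ghr at -0.62 (0.00181).

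**Figure D4:**
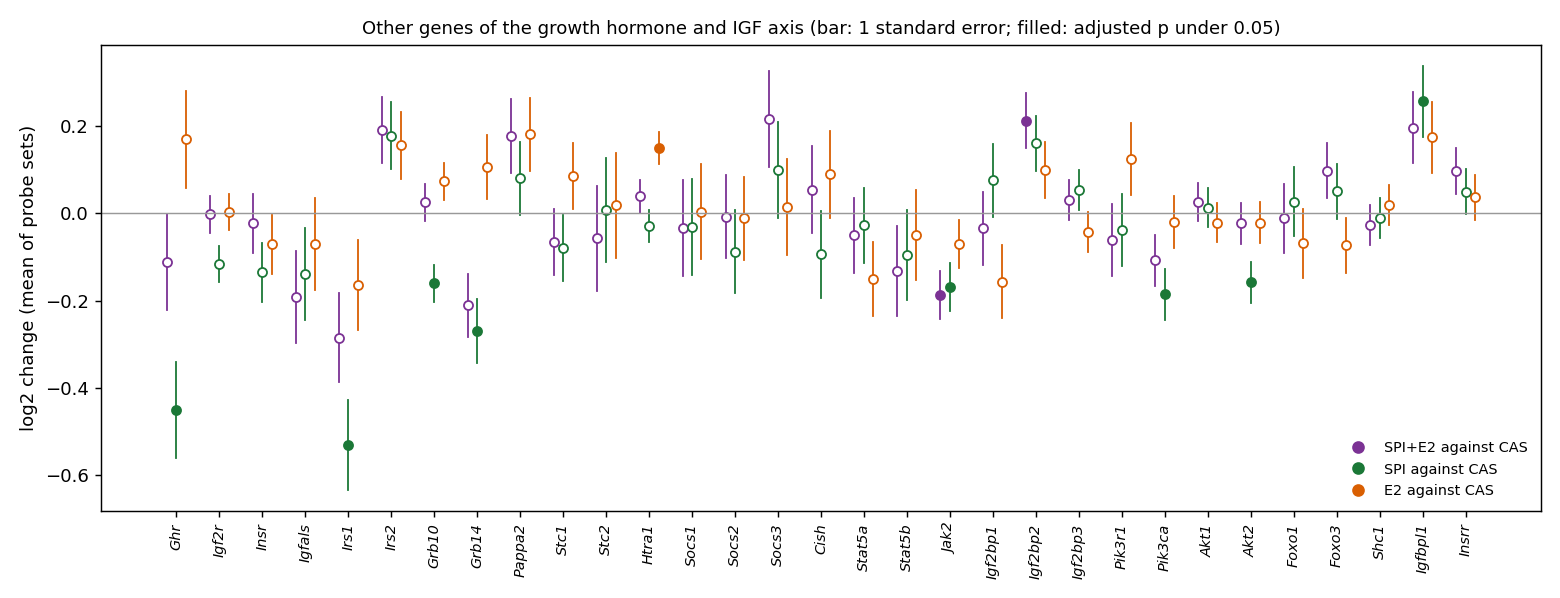
Changes against CAS of the other measured axis genes as gene means, on the log2 scale, for SPI+E2, SPI and E2, with bars of 1 standard error; filled points passed the limma test. Irs1 and Ghr lie lowest in SPI, at -0.53 and -0.45.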

How the data were processed

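The authors processed the array scans with GCOS and RMA (background adjustment, normalization, log2 transformation), then applied per-chip and per-gene normalization in GeneSpring. The deposited log2 values are centred on each probe set's median over the 12 arrays. The base of the logarithm after GeneSpring is not restated; base 2, which the methods name for RMA, was assumed, and with natural logs the Igfbp2 difference between SPI+E2 and CAS would be 11.6-fold and not 5.46-fold. Centring keeps differences between groups and removes levels. Control probe sets (57 of 31099) were left out; 20826 of the rest had 1 gene symbol, 436 several and 9780 none. A model of 4 group means was fitted to all probe sets with limma 3.58.1 in R 4.3.3 (eBayes, Benjamini-Hochberg over 31042), and again to means over a gene's probe sets (14217 genes). The code was tested on simulated data. All member probe sets are reported; other axis genes are named when among the 4 largest called changes of a treatment, and genes like Igfbp2 by the highest Pearson r. Members and lists were chosen with earlier results of these data known. Alternatives were a replicate block, 2-group fits, quantile and median scaling, robust variances, array weights, no moderation, a spread filter, gene means, a 1.5-fold rule and leaving out each array. Those on axis genes were chosen after seeing the data. The number of arrays limits the precision.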

Additional observations from a re-analysis of the deposited data

Results flagged for a closer look

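The interaction test of limma called 4 of the 22 probe sets, where 9.92% of all were called. The difference was 0.34 for Igf1 probe set 1382599_at and 0.27 for Igf1 probe set 1388469_at. It was -0.24 for Igfbp4 and -0.31 for Igfbp6 probe set 1387625_at. With each of the 12 arrays left out in turn, these calls were lost 5, 9, 11 and 6 times, in the order given. Groups of 3 arrays were too small to be screened for arrays far from the others.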

How the results depend on the processing

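Of 1350 member values recomputed under other settings, 1299 stayed on their side of the threshold, 16 fell short of it and 34 newly passed it. The other 1 turned round: Igf2 probe set 1367571_a_at in SPI against E2 was 0.0227 (limma adjusted p 0.838) as a gene mean, against -0.42 on its own. The gene-mean setting gives all probe sets of a gene the same value, so 1 gene can be counted several times. It also gave 17 of the 34 that newly passed and 4 of the 16 that fell short. Subtracting array medians and robust variances moved 0 values across the threshold. Here and below, turning round was counted only for values past the test in either fit. Values short of the threshold in both fits could change sign and were counted as staying. Of 1848 values with a single array left out, 1776 stayed, 66 fell short, 6 newly passed and 0 turned round, and 34 of 48 calls survived the loss of any array. Deviations from the group means correlated at -0.07 to 0.24 (median 0.04) between arrays of the same pool number in different groups. For other numbers they correlated at -0.23 to 0.20 (median -0.01). These ranges overlap and cannot settle whether the pool numbers pair the arrays. With pool number as a replicate block, calls numbered 12, 11 and 10 in SPI+E2, SPI and E2 against CAS, and the interaction 2 in place of 4, and without the probe sets of smallest spread it was also 2; the calls lost both times were Igfbp4 and Igf1 probe set 1388469_at. After quantile normalization the Igfbp4 interaction was lost and that of Igfbp2 gained. A 1.5-fold rule without a test kept 1 probe set in each comparison with CAS, 1 in SPI+E2 against SPI, 1 in SPI against E2, and 0 in SPI+E2 against E2 and in the interaction. Leaving out single arrays gave 9 to 12 calls in SPI+E2 against CAS, 7 to 10 in SPI, 8 to 10 in E2, 4 to 5 in SPI+E2 against SPI, 2 to 4 in SPI+E2 against E2, 5 to 6 in SPI against E2, 0 to 4 in the interaction and 12 to 14 by the F test. Of the other axis genes, 0 to 3 were called in SPI+E2, 4 to 7 in SPI and 0 to 1 in E2 against CAS, and 4 to 7 in SPI against E2. In SPI+E2 against CAS, 1 axis gene was called with the replicate block, 4 after quantile normalization, 1 with array weights and 0 without moderation, and in SPI 5 were called after quantile normalization. The cause of these differences was not tested.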
